A study of Mus musculus with 8 samples.

Results

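OTX2 binding around the genes for the axon guidance receptors Robo1 and Robo2 was read from the peak lists of a chromatin immunoprecipitation sequencing (ChIP-seq) study of the embryonic mouse ventral forebrain. The interval was chr16:72000000-74700000 of the mouse build mm9, which is 2.7 Mb long, and a peak belonged to it when its centre lay inside. The interval held 55 of the 26317 peaks in the 8 deposited lists. It also held 5 of the 1949 OTX2 regions of the genome, a region being a group of overlapping OTX2 peaks from at least 2 of the 3 OTX2 libraries with no overlapping control peak. The interval was chosen by measured values, namely its OTX2 regions and their ranks, among them a region at 72.51 Mb that ranked 13, 7 and 3 in the 3 lists. Its OTX2 counts, ranks, overlaps and densities are therefore a description and carry no test. The selection placed the end of Robo1 at about 73.05 Mb and Robo2 at about 73.89 to 74.41 Mb. It named no start of Robo1. The stretch up to the Robo1 end, called the Robo1 stretch, therefore runs from the lower bound of the interval and may include sequence outside the gene. Where peaks or regions are placed in Robo2, its named extent is meant. No mm9 annotation was used here, so no peak was assigned to an exon, intron or transcription start, and the interval is described by these bounds.

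All 8 libraries were made from wildtype mice of the outbred CD-1 strain at E12.5, a mid-gestation embryonic stage. The tissue was basal ganglia and septum, dissected as septum with the medial and lateral ganglionic eminences, the swellings that give rise to neurons of the basal ganglia and to cortical interneurons. The groups were 3 libraries precipitated with an antibody to OTX2, 3 libraries of input chromatin taken with no antibody, and 2 libraries precipitated with goat IgG. The third experiment had no IgG library. Each sample pooled tissue of several embryos, and nothing in the labels ties an experiment to its own litters. No OTX2 mutant tissue was among the samples used here. A peak in pooled tissue does not show which of its cells carried the binding, and a peak list has no level of marker genes by which the dissection could be checked. The lists gave a position and a rank for each peak but no height, score or read total, so read depth was unknown. The OTX2 lists of replicates 1 and 2 held 1848 and 1298 peaks and that of replicate 3 held 22325. Both replicate 3 lists carried a further tag in their track names whose meaning is not given, so replicates 1 and 2 are read as one processing batch and replicate 3 as another. Whether peaks of replicate 3 were called with other settings was not tested.

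Robo1 and Robo2 are single-pass membrane receptors of the immunoglobulin superfamily for the secreted Slit proteins. Slit binding to Robo receptors repels growing axons and migrating neurons, and both receptors guide forebrain axon tracts and the migration of interneurons out of the ganglionic eminences. The transcription factor OTX2 acts in the developing forebrain and midbrain, and its bicoid-type homeodomain recognises a TAATCC core. In the gene table of a different mouse build, GRCm38, the protein-coding genes ran in the order Gbe1, Robo1, Robo2 and Lipi. Gbe1 encodes the glycogen branching enzyme and Lipi a membrane-associated lipase. No protein-coding gene lay between Robo1 and Robo2 in that table, and 5 other genes did, of which 2 were long noncoding RNAs, 2 were pseudogenes and 1 was a small nuclear RNA.

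The promoters of both receptors are printed here because they are the stretches of the loci whose sequence was at hand, and they show whether the core that OTX2 recognises stands at the gene starts. They come from RefSeq on GRCm38.p6 and run from 250 bases before to 50 bases after the start, written 5′ to 3′ on the strand of the gene. The Robo1 window is chr16:72662899-72663198 on the plus strand. Robo2 had 3 entries on the minus strand, and the one nearest to Robo1 is chr16:74411776-74412075. Capitals mark TAAT, which reads ATTA where the match lies on the opposite strand.
Robo1: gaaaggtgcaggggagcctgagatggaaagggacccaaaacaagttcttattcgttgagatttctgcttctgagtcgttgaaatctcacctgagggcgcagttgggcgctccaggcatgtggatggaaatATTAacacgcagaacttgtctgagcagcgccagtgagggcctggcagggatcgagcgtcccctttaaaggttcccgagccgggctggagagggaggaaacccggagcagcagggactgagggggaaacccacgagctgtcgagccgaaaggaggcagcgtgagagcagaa
Robo2: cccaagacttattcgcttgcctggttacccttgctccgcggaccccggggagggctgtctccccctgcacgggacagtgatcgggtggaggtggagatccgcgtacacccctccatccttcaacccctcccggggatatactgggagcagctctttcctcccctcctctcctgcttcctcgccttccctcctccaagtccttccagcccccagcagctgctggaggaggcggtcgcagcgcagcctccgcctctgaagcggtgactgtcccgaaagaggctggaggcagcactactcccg
TAATCC was searched on both strands, and each TAATCC match also counts as a match to TAAT. Neither the Robo1 window nor any of the 3 Robo2 windows held TAATCC, which 7.06% of all 32851 promoter windows of this length held. TAAT occurred 1 time in the Robo1 window, from base 131 of the window, and 0 times in the Robo2 window printed above. The other 2 Robo2 windows, chr16:75092721-75093020 and chr16:75447244-75447543, each held 1 TAAT. Over all promoter windows, 58.0% held TAAT. The related receptors Robo3 and Robo4 each had 1 entry, and each of these held 1 TAATCC. No match says only that the letters are absent from the window. Because the peaks are on mm9, no peak was placed on these windows.

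OTX2 peaks lay in the interval in all 3 OTX2 libraries. OTX2 replicate 1 had 6 peaks there, which were 0.325% of its list (exact Clopper-Pearson 95% interval 0.119 to 0.705%). OTX2 replicate 2 had 4 peaks, or 0.308% of its list (0.0840 to 0.787%). OTX2 replicate 3 had 44 peaks, or 0.197% of its list (0.143 to 0.264%). The interval made up 0.105% of the 2562 Mb spanned by the lists, so each share was above the share by length. The exact intervals cover counting error only, and that of replicate 2 reached below the share by length. Per Mb, replicate 1 had 2.22 peaks in the interval against 0.721 over the genome. Replicate 2 had 1.48 against 0.507 and replicate 3 had 16.3 against 8.71.

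The control libraries, whose lists were short, together had 1 peak there. Input replicates 1 and 2 and both IgG replicates had 0 peaks in the interval, of 138, 142, 149 and 182 peaks. A count of 0 allows a share of up to 2.17% in input replicate 1, 2.11% in input replicate 2, 2.01% in IgG replicate 1 and 1.65% in IgG replicate 2. These limits are above the OTX2 shares, so the short control lists could not show a difference in share. Input replicate 3 had 1 peak of 235, or 0.426% (0.0108 to 2.35%). This was 0.370 peaks per Mb in the interval against 0.0917 over the genome, on a single peak. The controls thus do not show that the interval is poor in control peaks. That peak, chr16:74512847-74512986, was 140 bp wide and ranked 213, and it lay 60.5 kb from the nearest OTX2 peak. After merging overlapping OTX2 peaks, 0 of 45 merged peaks in the interval overlapped a control peak, and 95 of 22629 in the genome did.

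**Figure D1:**
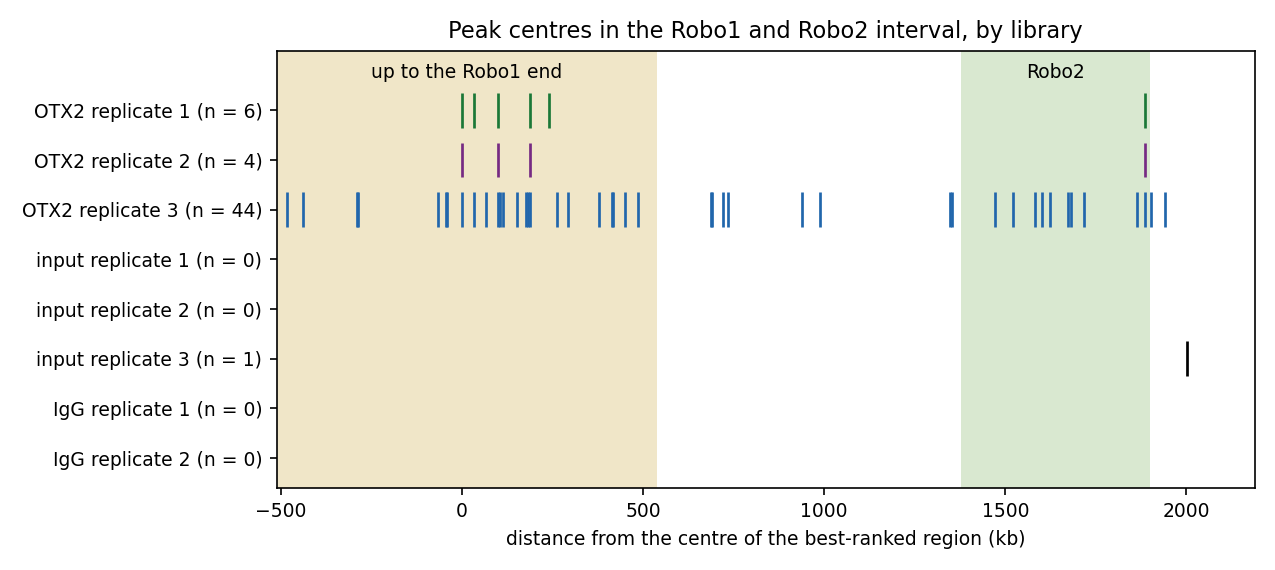
Each line marks the centre of a peak, with the distance in kb from the centre of the best-ranked OTX2 region on the x axis and 1 row per library. Shading marks the stretch up to the named end of Robo1 and the named extent of Robo2. Replicates 1 and 2 have 5 and 3 peaks in the first stretch and 1 each in Robo2, and replicate 3 has 44 peaks along the interval. The only control peak, in input replicate 3, lies beyond the named extent of Robo2.

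The peaks differed in width between the libraries. In the interval, replicate 1 peaks were 137 to 656 bp wide with a median of 254 bp, against 191 bp over its list. Replicate 2 peaks were 158 to 588 bp wide with a median of 308 bp, against 182 bp. Replicate 3 peaks were 459 to 2046 bp wide with a median of 916 bp, against 827 bp. Peaks of the interval together covered 1.95, 1.36 and 42.3 kb in replicates 1, 2 and 3. In each library the interval's median width was above that of the list. These medians rest on 6, 4 and 44 peaks, and the interval was chosen for the ranks of its regions. Width went with rank in the replicate 3 list. Peaks within 500 ranks of rank 3 had a median width of 1658 bp, and those within 500 ranks of rank 21902 had 543 bp. The wider medians are therefore no result about the interval.

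Of the 5 OTX2 regions, 4 stood in the stretch up to the end of Robo1, within 189 kb of one another, and 1 stood in Robo2. Neighbouring regions were 34.2, 66.0 and 88.5 kb apart in the Robo1 stretch, and 1698 kb separated the last of them from the region in Robo2. Each library gave at most 1 peak to a region. In all 5 regions the narrow peaks of replicates 1 and 2 lay wholly inside the wide peak of replicate 3. All 3 libraries held 4 of the 5 regions, or 80.0%, and in the genome 40.5% of regions (789 of 1949) were held by all 3.

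The best-ranked region was chr16:72510439-72511794, centred at 72.51 Mb and 1356 bp wide. It ranked 13 of 1848 in replicate 1, 7 of 1298 in replicate 2 and 3 of 22325 in replicate 3. As a percentile of the list, where a low value is a good rank, these were 0.703%, 0.539% and 0.0134%. Of the 789 regions held by all 3 libraries, 12 ranked better in replicate 1, 6 in replicate 2 and 2 in replicate 3, and 3 including this one ranked at least as well in every list. By mean percentile it stood in place 1 of the 29 such regions on chromosome 16. Its narrow peaks were wide for their lists. The replicate 1 peak, chr16:72510823-72511478, was 656 bp wide, and 66 peaks of that list were at least as wide. The replicate 2 peak, chr16:72510830-72511417, was 588 bp wide, and 46 peaks of that list were at least as wide. The replicate 3 peak was not among the widest of its list, where 3085 peaks were at least 1356 bp wide. The centres lay 27.0 bp apart between replicates 1 and 2, 34.0 bp apart between 1 and 3 and 7.0 bp apart between 2 and 3. Over the 789 regions the median distances were 46.0, 122 and 126 bp for the same pairs, so all 3 distances in this region were below the median.

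The region at 72.70 Mb, chr16:72699132-72700519, was second by its replicate 3 rank. It lay 188.7 kb from the best-ranked region and was 1388 bp wide. It ranked 398 in replicate 1, 234 in replicate 2 and 80 in replicate 3, at percentiles of 21.5%, 18.0% and 0.358%. Its replicate 1 peak, chr16:72699453-72699949, was 497 bp wide, and its replicate 2 peak, chr16:72699604-72700007, was 404 bp wide. Centres lay 104.5, 124.5 and 20.0 bp apart for replicates 1 and 2, 1 and 3, and 2 and 3. Replicates 2 and 3 placed this region closest to each other, as they did at 72.51 Mb.

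The region at 72.61 Mb, chr16:72610617-72612083, lay 100.2 kb from the best-ranked region and was 1467 bp wide. It ranked 381, 427 and 549 in replicates 1, 2 and 3, at percentiles of 20.6%, 32.9% and 2.46%. Its replicate 1 peak was chr16:72610952-72611243, 292 bp wide, and its replicate 2 peak was chr16:72610960-72611117, 158 bp wide and the narrowest of that library in the interval. The narrow centres were 59.0 bp apart. They lay 252.5 bp (replicate 1) and 311.5 bp (replicate 2) from the replicate 3 centre, the latter beyond the upper quartile of 292 bp over the 789 regions. The narrow peaks thus sat off centre in the wide one, on its lower-coordinate side.

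The region at 72.55 Mb, chr16:72544824-72545806, was the one held by only 2 libraries, replicates 1 and 3. It lay 34.2 kb from the best-ranked region. Its replicate 1 peak, chr16:72545356-72545511, was 156 bp wide and ranked 830, at 44.9%. Its replicate 3 peak was 983 bp wide and ranked 655, at 2.93%. The centres lay 118.5 bp apart, and replicate 2 had no peak there. This was the narrowest region of the interval and the one with the poorest replicate 3 rank.

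**Figure D2:**
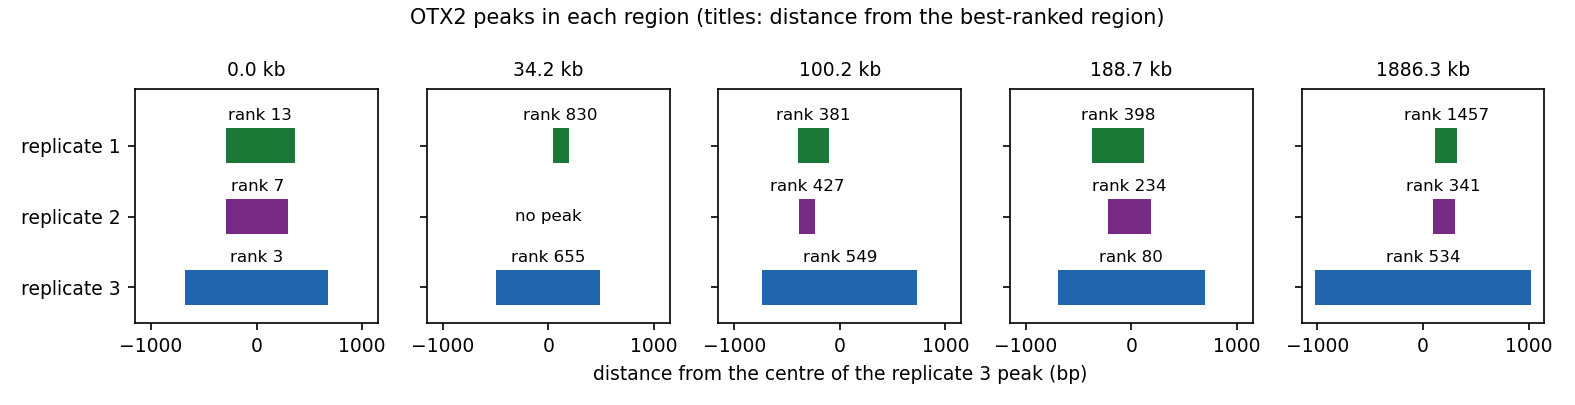
Each panel is 1 of the 5 regions, titled with its distance from the best-ranked region, with bars for the extent of the peak of each OTX2 library in bp from the centre of the replicate 3 peak and the rank written above. The narrow peaks lie inside the replicate 3 peak in all 5 panels, within 34.0 bp of its centre at 0.0 kb and off centre at 100.2 and 1886.3 kb, and replicate 2 has no peak at 34.2 kb.

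Robo2 held 1 region, chr16:74396429-74398474, at 74.40 Mb, 1886.3 kb from the best-ranked region. At 2046 bp it was the widest region of the interval, and its replicate 3 peak was wider than the other 43 of that library there. It ranked 1457 in replicate 1, 341 in replicate 2 and 534 in replicate 3, at percentiles of 78.8%, 26.3% and 2.39%. Its narrow peaks were chr16:74397564-74397778 (215 bp) in replicate 1 and chr16:74397542-74397753 (212 bp) in replicate 2. They agreed in place, with centres 23.5 bp apart, and lay 219.5 and 196.0 bp from the replicate 3 centre. They did not agree in rank. The replicate 1 percentile was 52.6 points worse than the replicate 2 percentile. A difference at least as large in either direction was found in 30 of 789 regions, this one included. In 3 of these 30, this one included, replicate 1 was the worse. The interval was chosen with these ranks known, so the counts are a description only. Replicate 1 was 76.5 points worse than replicate 3, at least as large in 18 of 789, or 2.28%. Replicate 2 was 23.9 points worse than replicate 3, near the median of 32.5 points over the 789 regions. The Robo2 region was thus ranked in the worse 50% of the list by replicate 1 alone.

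The regions of the Robo1 stretch held by all 3 libraries did not show such a gap between replicates 1 and 2. Replicate 1 was worse by 0.164 points at 72.51 Mb and by 3.51 points at 72.70 Mb, and at 72.61 Mb the replicate 1 minus replicate 2 difference was -12.3 points. Over the 789 regions the median of that difference was -4.63 points with quartiles of -20.6 and 5.17, and these 3 values lie between the quartiles. Replicate 3 gave the best percentile in all 5 regions. The median differences from replicate 3 over the 789 regions were 24.1 points for replicate 1 and 32.5 points for replicate 2, and the replicate 3 list was by far the longest.

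**Figure D3:**
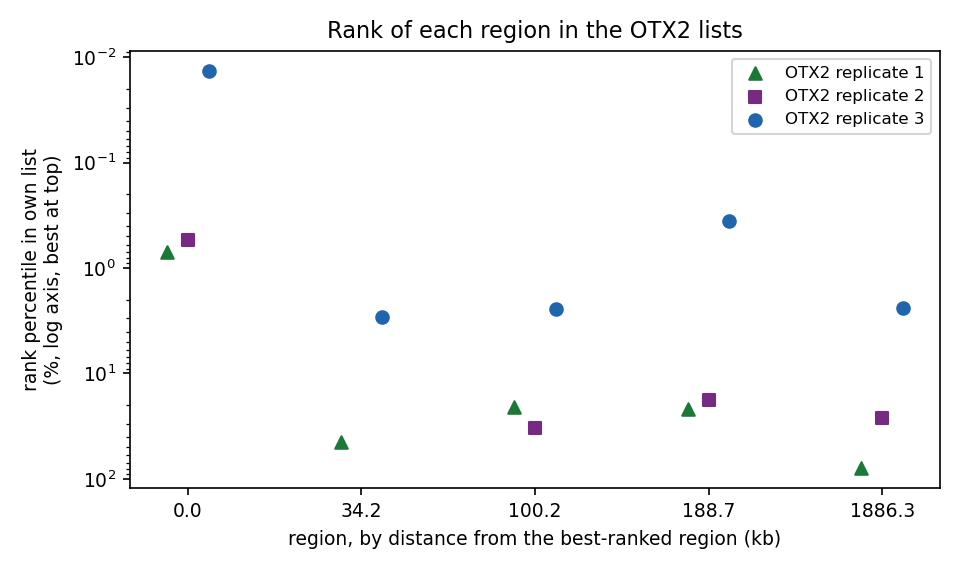
The x axis lists the 5 regions by distance in kb from the best-ranked region, not to scale, and the log y axis is the rank percentile in each library's own list, best at the top, with 1 marker per OTX2 replicate. The region at 0.0 kb is the best in every list, and the Robo2 region at 1886.3 kb is at 78.8% in replicate 1, 26.3% in replicate 2 and 2.39% in replicate 3.

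Replicate 1 had 1 further peak in the interval, chr16:72751485-72751621, in the Robo1 stretch. It was 137 bp wide, ranked 1826 of 1848 and lay 20.9 kb from the nearest peak of another OTX2 list. The 5 best-ranked peaks of replicate 1 in the interval were those of the 5 regions. The 4 peaks of replicate 2 were all in regions.

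The 44 peaks of replicate 3 were spread along the whole interval, and 5 of them, ranked 3, 80, 534, 549 and 655, were the 5 regions. The other 39 ranked from 2141 to 21902, so no replicate 3 peak of the interval ranked between 655 and 2141. Their median percentile was 42.6%, against 54.3% over the 20354 peaks of the whole list that replicates 1 and 2 did not overlap. The best of the 39 was chr16:72928699-72929541, 843 bp wide and ranked 2141, and the next was chr16:72888037-72889148, 1112 bp wide and ranked 2425. Both lay in the Robo1 stretch. Of the 39, 5 had their centre within 20 kb of that of a region, and the others lay further away.

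By rank class, 6 of the 44 were in the best 10% of the list, 6 between 10 and 20%, 15 between 20 and 50% and 17 in the worse 50%. Replicate 1 or 2 overlapped 5 of the 6 in the best class and none of the other 38. Over the whole list the overlapped shares of these classes were 64.6%, 13.7%, 2.76% and 0.340%. Of the list's peaks ranked 655 or better, 628 of 655 were overlapped, or 95.9%, and of those ranked after 655 and up to 2141, 53.4% were. The ranks 655 and 2141 were taken from the interval's own peaks, and the overlapped share of the list fell from each class to the next. A drop in the list between these ranks therefore says nothing about a break in the interval.

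Peaks were denser in the Robo1 stretch than in the gap between the genes. The 1.05 Mb up to the end of Robo1 held 24 replicate 3 peaks, or 22.9 per Mb, and 3.81 regions per Mb. Replicates 1 and 2 had 5 and 3 peaks there. The 0.84 Mb between the genes held 8 replicate 3 peaks, or 9.52 per Mb, close to the 8.71 of the genome, and no peak of replicates 1 or 2. Its best replicate 3 peak, chr16:73858603-73859650, ranked 3667. The 0.52 Mb of Robo2 held 10 replicate 3 peaks, or 19.2 per Mb, with 1 peak each of replicates 1 and 2 and 1.92 regions per Mb. The 0.29 Mb beyond this named extent held 2 replicate 3 peaks, or 6.90 per Mb, the better ranked 7552, and the input peak. Other GRCm38 entries of Robo2 start at higher coordinates than the one printed above. Whether this stretch lies outside the gene in mm9 was not analysed. Rank differed along the interval as well as density. The median replicate 3 percentile was 32.3% in the Robo1 stretch, where 17 of 24 peaks were in the better-ranked 50% of the list. It was 51.4% between the genes and 61.2% in Robo2, where 5 of 10 were. Median widths were 1028 bp in the Robo1 stretch, 799 bp between the genes and 725 bp in Robo2.

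**Figure D4:**
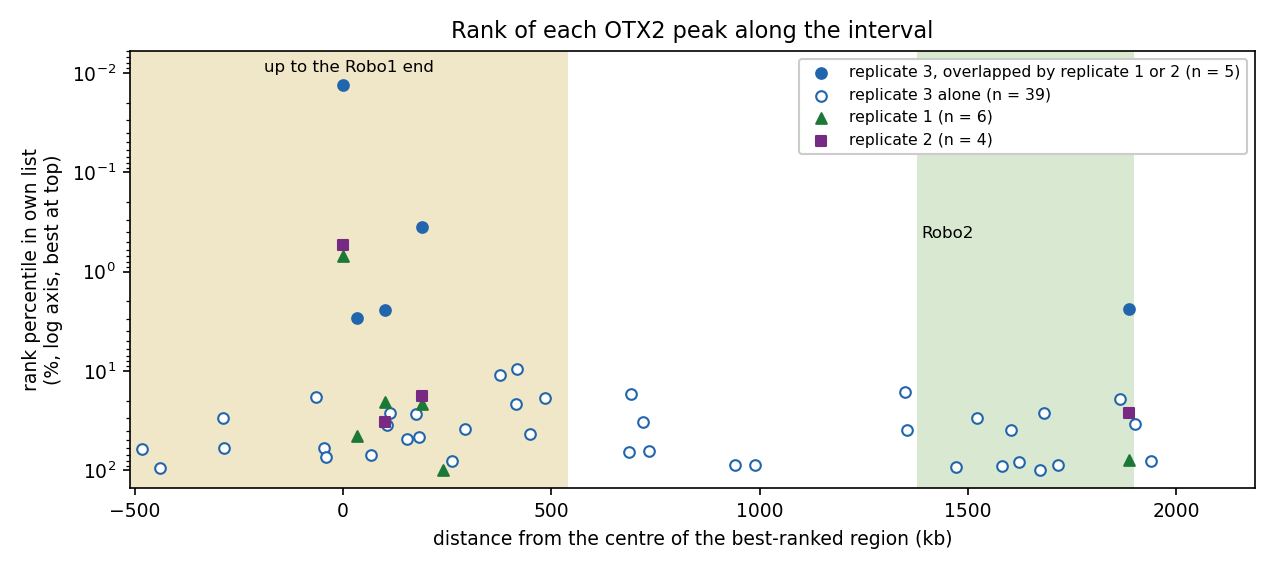
Each point is an OTX2 peak, with its distance in kb from the best-ranked region on the x axis and its rank percentile on a log y axis, best at the top. Filled circles are the 5 replicate 3 peaks that replicate 1 or 2 overlapped, and they stand apart above the 39 open circles, replicate 3 peaks at ranks of 2141 or worse. Triangles and squares are the 6 and 4 peaks of replicates 1 and 2.

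Neighbouring replicate 3 peaks were closer in the interval than in the list, with a median gap of 32.2 kb over 43 gaps against 46.7 kb over 22302. The widest gap, 359 kb, ran from 73499443 to 73858603, between the genes. The next 3 were 220, 205 and 201 kb, and the first of these lay in the Robo1 stretch, at lower coordinates than the best-ranked region. The 4 regions of the Robo1 stretch lay close together, and the Robo2 region had no other region near it. In the interval 4 of the 5 regions, or 80.0%, had at least 3 other regions within 200 kb, and 200 of the 1949 regions of the genome did, or 10.3%. These 4 are the regions of the Robo1 stretch, for which the count follows from the 189 kb they span.

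Sharing of peaks between libraries was set beside that of the whole lists. Replicate 2 overlapped 4 of 6 replicate 1 peaks, or 66.7% (22.3 to 95.7%), against 43.0% of the list. Replicate 3 overlapped 5 of 6 replicate 1 peaks, or 83.3% (35.9 to 99.6%), against 87.9%. Replicate 1 overlapped 4 of 4 replicate 2 peaks (39.8 to 100%) against 61.6%, and replicate 3 overlapped the same 4 against 92.1%. Replicate 1 or 2 overlapped 5 of 44 replicate 3 peaks, or 11.4% (3.79 to 24.6%), against 8.83%. After merging overlapping peaks of the 3 libraries, 5 of 45 merged peaks, or 11.1%, were regions, against 8.61% (1949 of 22629). These shares rest on 4 to 44 peaks that the choice of the interval used, so they are given as values only.

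Regions were denser in the interval than around it. It held 1.85 regions per Mb, against 0.662 on the rest of chromosome 16 (61 regions in 92.1 Mb) and 0.761 over the genome. The ratio to the genome was 2.43, with an interval of 0.791 to 5.67 from the exact 95% interval of 5 regions among 1949. Because the interval was chosen for its regions, this ratio supports nothing beyond the count. It changed with the libraries used. Among regions of all 3 libraries the ratio was 4.81. It was 3.30 without replicate 1 and 3.00 without replicate 2. Without replicate 3, and so within the batch of replicates 1 and 2, it was 5.0. These settings gave 4 to 5 regions, and all these ratios lay within 0.791 to 5.67. They are no result about the libraries. Replicate 3 alone had 16.3 peaks per Mb in the interval, 7.82 on the rest of chromosome 16 and 8.71 over the genome.

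Counts of this size were found elsewhere too. Over 940 tiles of 2.7 Mb along all chromosomes, the median was 1.00 region per tile, the mean was 2.05 and the largest count was 15. At least 5 regions were found in 125 tiles, or 13.3%. At least 4 regions held by all 3 libraries, as in the interval, were found in 42 tiles, or 4.47%. At least 6 replicate 1 peaks were found in 6.49% of tiles, at least 4 replicate 2 peaks in 10.2% and at least 44 replicate 3 peaks in 9.26%. On every count the interval thus lay in the upper part of the tiles, and other tiles reached the same counts. Because the interval was chosen for its OTX2 regions and their ranks, its place among the tiles is a description only.

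**Figure D5:**
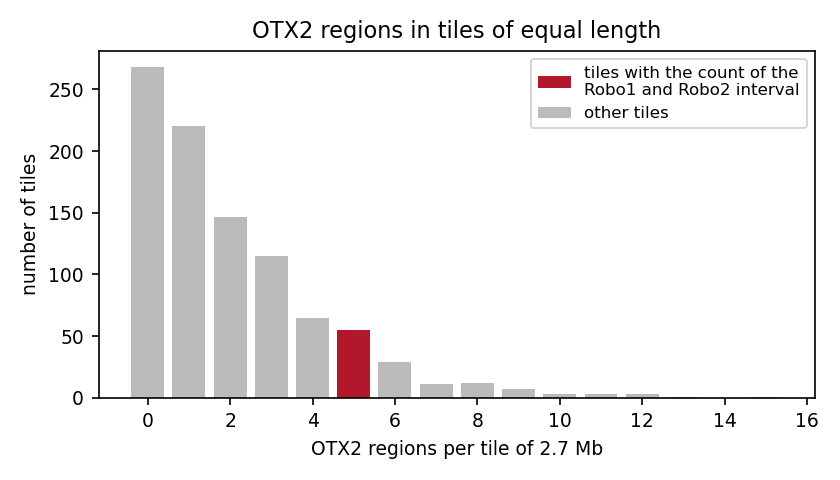
Bars give the number of 2.7 Mb tiles (y axis) with each count of OTX2 regions (x axis), over 940 tiles. The red bar marks tiles with 5 regions, the count of the Robo1 and Robo2 interval, and 125 tiles hold 5 or more.

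The bounds of the interval fell in stretches with few OTX2 peaks. In replicates 1 and 2 the nearest peaks outside lay at 67.87 Mb, 4128 kb below the lower bound, and at 76.32 Mb, 1620 kb above the upper bound, and the outermost peaks inside lay 511 and 302 kb from the bounds. In replicate 3 the last peak below was chr16:71717529-71718104, ranked 16901 and 282 kb from the bound, and the first inside was chr16:72028111-72029821, ranked 13773 and 29.0 kb from it. At the upper bound the last replicate 3 peak inside was chr16:74451608-74452397, ranked 17928 and 248 kb away, and the first outside was chr16:74733027-74733661, ranked 17155 and 33.3 kb away. Extending the interval by 1 Mb beyond its upper bound added 0 peaks of replicates 1 and 2, 2 of replicate 3 and 0 regions. In GRCm38, 2 of the 3 RefSeq entries of Robo2 start at higher coordinates than the entry printed above, and where these starts lie in mm9 was not analysed here.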

How the data were processed

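The 8 files were 1 peak list per library, called per sample and not on pooled samples. Per the file headers and values, each line deposited by the authors gave the position of a peak and its rank in the list, and rank 1 was read as the best. What the rank was based on, the threshold and the control used are not stated. BWA, MACS 1.4 and mm9 are named in the submitters' processing notes.

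Python 3.11.15, scipy 1.17.1, numpy 2.4.6 and matplotlib 3.10.9 were used. For the 3 overlaps between OTX2 lists bedtools 2.31.1 counted the same, and the code was tested on simulated data. Peaks sharing at least 1 bp overlapped. A region needed peaks of at least 2 of 3 OTX2 libraries and no input or IgG peak. A rank percentile is 100% times the rank over the list length. Chromosome lengths run from the lowest to the highest position in the 8 lists. Intervals are exact Clopper-Pearson 95% intervals, that of the density ratio being the interval of the share of regions divided by the share of length, and cover counting error only. A count of 0 was read as allowing 3 counts.

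The members, the interval, the motifs and the lists were chosen with earlier results of these data known. The interval was chosen for its OTX2 regions and their ranks. Its other OTX2 measures, such as widths and gaps, come from the same peaks, so no test was run. The text names every region and the 5 best-ranked peaks of each library, or all where a library had fewer in the interval. The 2 replicate 3 peaks ranked next, the best peak between the genes, the replicate 1 peak outside the regions, the peaks at the bounds and those named for their width were chosen after their values were seen. Alternatives changed the libraries a region needs, the overlap rule, the control rule, peak widths, list lengths, membership, the set of libraries and the upper bound. Coordinates were not converted between builds. GRCm38 tables served for gene order and promoters only. Region sequences, distances to gene starts, proteins and other genes of the Slit and Robo pathway were not analysed here.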

Additional observations from a re-analysis of the deposited data

How the results depend on the processing

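Of 56 values under other settings, over 25 results, 4 moved past the margin set for them. Whether a result changed direction was not assessed. Some of the 56 could not move. Each library gave at most 1 peak to a region, so the mean rank percentile of a region's peaks equalled the best one. Keeping control peaks could not change the region count, since 0 of 45 merged peaks in the interval overlapped one. The tally therefore overstates how stable the results were. The margin was 1.5 times for counts and the exact 95% interval for shares and the density ratio, which is wide at these counts. Counting regions present in any 1 library gave 45 regions in place of 5. The better-ranked 50% of each list left 27 replicate 3 peaks in place of 44. With every OTX2 list shortened to its best 1298 ranks, the share of replicate 1 peaks overlapped by replicate 3 was 100%, and the share of replicate 3 peaks overlapped by replicate 1 or 2 was 100%, since only the better-ranked peaks were left. With every peak set to 200 bp around its centre, the overlapped share fell from 83.3% to 50% for replicate 1 in replicate 3, from 100% to 75% for replicate 2 in replicate 3 and from 11.4% to 9.09% for replicate 3. Leaving out 1 OTX2 library at a time gave 4 to 5 regions and density ratios of 3.00 to 5.0 in place of 2.43, and requiring all 3 libraries gave 4 regions and a ratio of 4.81. The interval extended by 1 Mb, chosen after seeing the data, still held 5 regions. No paired analysis was possible because no result comes from a test. Read depth was unknown, and the control lists of 138 to 235 peaks were too short to show a difference in share.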

Other observations

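The widths of the 44 replicate 3 peaks of the interval were set beside those of the peaks within 500 ranks. At most 5% of these neighbours were at least as wide for 3 of the 44 peaks, and at least 95% were for 3 others. Such a cut places about 5% of a list's peaks at each end, and 3 of 44 is near that share. The counts are therefore no result about the interval. The peak chr16:72662760-72664648 in the Robo1 stretch was 1889 bp wide and ranked 10830, and 40 of its 1000 neighbours in rank were at least as wide (median 842 bp). The peak chr16:72028111-72029821, the first inside the lower bound, was 1711 bp wide and ranked 13773, and 25 of its 1000 neighbours in rank were at least as wide (median 790 bp). In Robo2 the peak chr16:74182803-74183536 was 734 bp wide at rank 21902, which 24 of 923 neighbours in rank matched or passed (median 543 bp). The 3 narrow ones were chr16:72224124-72224632, chr16:72623000-72623604 and chr16:72802347-72802967, with 97.7%, 98.7% and 96.9% of neighbours at least as wide. All 6 were picked from the 44 for their width.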
